A study of Mus musculus with 11 samples.

Results

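The 8 genes described here cover both ends of B-cell development that RNA can mark. Rag1, Rag2 and Dntt act in V(D)J recombination, while Igkc, Ms4a1, Ighd, Cd22 and Fcer2a come up later in the lineage. They were chosen by symbol, through the Ensembl identifiers of the count table, and are 8 of 55487 genes. The data are bulk RNA sequencing of 11 mouse samples of acute myeloid leukaemia (AML). All 11 had Flt3-ITD, a duplication within Flt3 that activates this cytokine receptor, and NHD13, a NUP98-HOXD13 fusion transgene. They differed at Ifnar1, the gene of a type I interferon receptor subunit, with 6 Ifnar1 +/- and 5 Ifnar1 -/- samples, and no sample with 2 wild-type Ifnar1 alleles was analysed here. The labels give no age, sex, blast share or transgene promoter. Nothing in them says that each sample is a different mouse, and p-values then reflect only the spread among samples, which may be technical.

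In a developing B cell the RAG1-RAG2 recombinase cuts DNA beside V, D and J segments, and the end-joining machinery seals the ends. Terminal deoxynucleotidyl transferase, the product of Dntt, adds untemplated nucleotides at the junctions. The heavy chain is rearranged first, and a light chain (kappa or lambda) follows in the small pre-B cell. Cell-surface genes such as Ms4a1 and Fcer2a and the delta heavy chain are known for later stages. AML is a myeloid leukaemia, and these genes read how far B-lineage transcription went in the AML samples. Whether it came from leukaemic or from other cells of a sample was not tested.

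Library totals ran from 25583642 to 38728143 estimated counts. Levels are CPM, counts scaled to library size with TMM factors, and levels of different genes are compared as CPM per kb of annotated exon. On this scale 1 count was 0.0241 to 0.0515 CPM. A pair of libraries stood apart from the rest. Ifnar1 -/- library 2 had 47575 CPM of the eosinophil gene Prg2, against at most 1164 CPM in the other 10, and globin genes took 11.8% of counts in Ifnar1 +/- library 6, against at most 1.42% elsewhere. The 3 recombination genes together had 0 counts in the first and 1 count in the second of these libraries. Ifnar1 itself ranged over 39.2 to 84.4 CPM with the +/- and 36.2 to 133 CPM with the -/- label, so gene-level counts did not check the genotype labels, and which part of Ifnar1 the mutant allele lacks is not given in the labels. Genotypes are given throughout as labelled. Of progenitor and myeloid genes, Flt3 had 72.8 to 233 CPM and Kit 6.76 to 597 CPM, while the granule gene Mpo had at most 53.5 CPM and was at 0.123 and 0.0736 CPM in Ifnar1 -/- libraries 1 and 4. In bulk RNA, fewer cells of a type and less RNA per cell cannot be told apart.

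Rag1 and Rag2, which encode the 2 subunits of the recombinase, were transcribed in the same 6 libraries and were at or near 0 in the other 5. Rag1 (ENSMUSG00000061311, chromosome 2, 101638282 to 101649501, minus strand) and Rag2 (ENSMUSG00000032864, chromosome 2, 101624718 to 101632529, plus strand) face each other across 5752 bp in GRCm38. Rag1 had 0, 0.434, 1.29, 10.2, 8.48 and 0 CPM across Ifnar1 +/- libraries 1 to 6. Across Ifnar1 -/- libraries 1 to 5 it had 0, 0, 18.9, 0 and 10.2 CPM. The highest library was therefore an Ifnar1 -/- one, and the ranges of the genotypes overlapped. A count of 0 allows up to 0.0925 to 0.154 CPM in the 5 libraries that had none.

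Rag2 had 0.0804, 1.03, 6.36, 38.1, 35.4 and 0 CPM across Ifnar1 +/- libraries 1 to 6, and 0.185, 0, 27.5, 0 and 16.5 CPM across Ifnar1 -/- libraries 1 to 5. Its 2 highest libraries were Ifnar1 +/- 4 and 5, and those of Rag1 were Ifnar1 -/- 3 and 5. Ifnar1 +/- library 3 stood out by a low recombinase level. It had 36 counts of Rag1 and 177 of Rag2, although the surrogate light chain gene Igll1 was at 2818 CPM and Ebf1, a B-lineage transcription factor gene, at 744 CPM there, the highest of any library for both. Ifnar1 +/- library 2 had 13 and 31 counts.

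**Figure D1:**
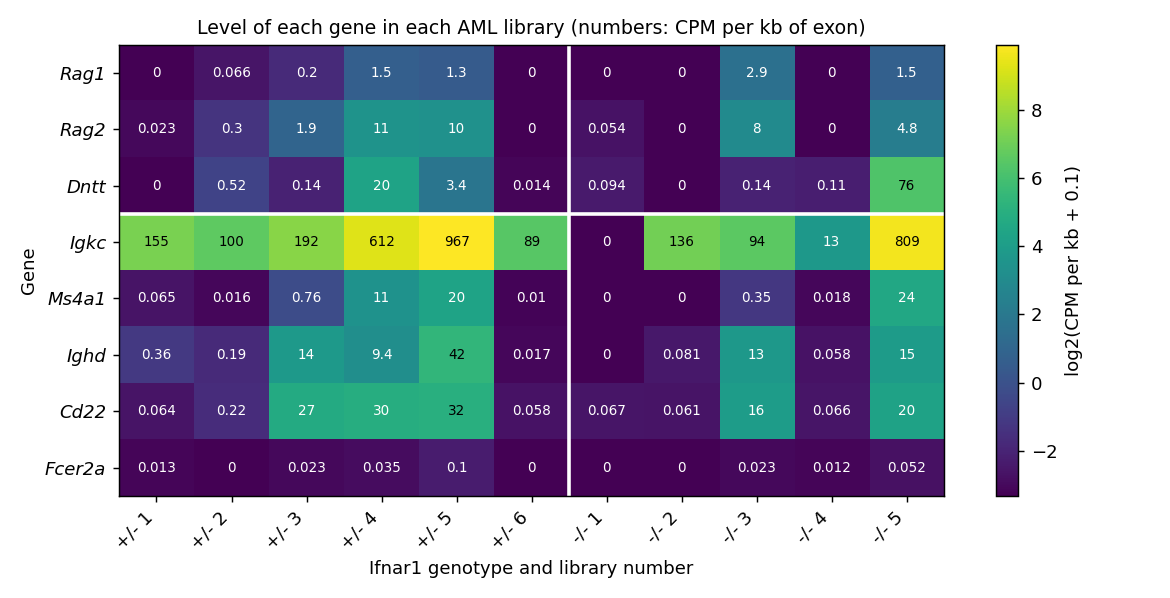
Level of the 8 genes (rows) in the 11 AML libraries (columns, by Ifnar1 genotype and library number), as CPM per kb of exon, printed in each cell and coloured on a log2 scale with 0.1 added. The recombination genes are above the white line, and at least 1 of them exceeded 1 CPM per kb in Ifnar1 +/- libraries 3, 4 and 5 and Ifnar1 -/- libraries 3 and 5 only, while Igkc was present in 10 of 11 libraries.

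Rag2 exceeded Rag1 per kb of exon wherever both had at least 10 counts, by different amounts. The ratio of Rag2 to Rag1 per kb came to 4.602, 9.49, 7.23 and 8.07 for Ifnar1 +/- libraries 2 to 5, against 2.81 and 3.12 for Ifnar1 -/- libraries 3 and 5. The Ifnar1 -/- values lay below all 4 Ifnar1 +/- values. This ratio was chosen after its values were seen, and with 4 against 2 libraries a two-sided exact permutation test of its log2 gave p = 0.133, the smallest it can give. Exons of B230118H07Rik overlap those of Rag2 by 208 bp on the opposite strand and those of Rag1 by 80 bp on the same strand, and whether the counting used strand is not given in the sources used here. That gene had 14.7, 9.21, 18.7 and 14.7 CPM in Ifnar1 +/- libraries 1 and 6 and Ifnar1 -/- libraries 1 and 4, where Rag1 had 0 counts. Rag2 had 2, 0, 6 and 0 counts in the same libraries. The ratio comes from other libraries, and some counts there were not whole, such as 528.44 of Rag1 and 768.75 of Rag2 in Ifnar1 -/- library 3. The part of shared reads in the ratio was not tested.

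Dntt varied most of the 3 recombination genes. Dntt (ENSMUSG00000025014, chromosome 19, 41029275 to 41059525, plus strand) had 0, 1.20, 0.324, 46.4, 7.83 and 0.0324 CPM across Ifnar1 +/- libraries 1 to 6, and 0.216, 0, 0.322, 0.258 and 175.0 CPM across Ifnar1 -/- libraries 1 to 5. It was high in Ifnar1 -/- library 5 and Ifnar1 +/- library 4, and nearly absent from 2 libraries with clear Rag2 transcript, Ifnar1 +/- library 3 and Ifnar1 -/- library 3, with 9 counts each. Per kb, Dntt was 15.8 times Rag2 in Ifnar1 -/- library 5, 1.82 times in Ifnar1 +/- library 4 and 0.330 times in Ifnar1 +/- library 5. Of the summed recombination genes per kb, Dntt made up 92.3%, 61.5% and 22.7% in these 3 libraries and 1.27% in Ifnar1 -/- library 3.

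The sequences just before the start sites are shown because the Rag genes were transcribed in the same libraries while Dntt was not always with them. Each holds the 250 bases before the RefSeq start (GRCm38.p6), 5′ to 3′ on the gene's strand: chr2:101649533-101649782 (minus) for Rag1, chr2:101624462-101624711 (plus) for Rag2 and chr19:41029025-41029274 (plus) for Dntt. RefSeq promoter entries matched 5 of the 8 genes, and Igkc, Ms4a1 and Ighd had none. Capitals mark matches to any of the motifs described after the sequences.
Rag1: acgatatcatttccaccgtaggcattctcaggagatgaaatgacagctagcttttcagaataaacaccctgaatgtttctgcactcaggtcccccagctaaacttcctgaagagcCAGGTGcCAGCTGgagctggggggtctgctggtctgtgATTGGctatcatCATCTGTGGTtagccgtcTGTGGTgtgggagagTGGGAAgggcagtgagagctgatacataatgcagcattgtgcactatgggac
Rag2: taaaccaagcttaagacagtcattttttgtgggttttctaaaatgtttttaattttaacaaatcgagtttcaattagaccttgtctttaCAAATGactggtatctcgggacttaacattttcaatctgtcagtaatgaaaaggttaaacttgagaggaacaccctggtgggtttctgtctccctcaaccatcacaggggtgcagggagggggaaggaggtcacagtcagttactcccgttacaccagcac
Dntt: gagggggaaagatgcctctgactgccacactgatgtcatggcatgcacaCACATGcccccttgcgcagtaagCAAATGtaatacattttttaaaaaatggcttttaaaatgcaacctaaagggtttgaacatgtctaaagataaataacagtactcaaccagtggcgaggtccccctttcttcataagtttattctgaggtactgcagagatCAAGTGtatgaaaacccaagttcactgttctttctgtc

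On both strands, 5 motifs were searched: the E-box CANNTG bound by E2A and related factors, TGGGAA, a core of Ikaros sites, GTAAACA for FOXO factors, TGTGGT for RUNX factors, and the CCAAT box. The E-box had 3 matches before Rag1, 1 before Rag2 and 3 before Dntt, and 66.2% of 32851 windows of the same length held it. Rag1 also had 1 match to TGGGAA, 2 to TGTGGT and 1 to CCAAT, which 21.6%, 14.0% and 33.85% of the windows held. An E-box before Rag1, 85 to 80 bases before the start, overlaps a TGTGGT match at 81 to 76. GTAAACA, found in 3.17% of windows, was in none of the 3. These are matches of letters and do not show binding.

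Igkc, the kappa light-chain constant gene (ENSMUSG00000076609, chromosome 6, 70726435 to 70726966, plus strand), had at least 10 counts in 10 of 11 libraries, more than any other of the 8, and 0 in the last. Cd22 had 6 counts or more in all 11. Igkc had 82.4, 53.3, 102, 326, 514.5 and 47.4 CPM across Ifnar1 +/- libraries 1 to 6, and 0, 72.2, 50.1, 7.10 and 430.1 CPM across Ifnar1 -/- libraries 1 to 5. It was highest in Ifnar1 +/- libraries 4 and 5 and Ifnar1 -/- library 5, which were also the 3 libraries with most Ms4a1 and most Dntt. Counts of the constant exon do not tell a rearranged kappa transcript from a germline one.

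Igkc was also counted in libraries with few recombination transcripts (0 to 7 counts of the 3 genes in 4 of them and 80 in Ifnar1 +/- library 2), where a plasma-cell gene was present too. Igha, the constant gene of the IgA heavy chain, was at 66.6, 65.6 and 38.8 CPM in Ifnar1 +/- libraries 1, 2 and 6 and at 59.4 and 8.28 CPM in Ifnar1 -/- libraries 2 and 4, beside the Igkc values above. Jchain, which links IgA and IgM chains in secreted antibody, had 11.2, 4.17, 5.42, 7.15 and 1.80 CPM in them. Ifnar1 -/- library 1 had 0 counts of Igkc and 0.0308 CPM of Igha. Igha was also high in Ifnar1 +/- library 5 and Ifnar1 -/- library 5, at 83.4 and 351 CPM. Of the light-chain constant genes 3 could be tested, and 0 were called. Of 13 plasma-cell genes, 7 could be tested and 0 were called (4 fitted lower, 3 higher, median log2 fold change -0.26). Xbp1, a factor of secretory cells, had 182 ± 88.2 CPM over the Ifnar1 +/- (SD, n = 6) and 152 ± 65.0 CPM over the Ifnar1 -/- libraries (SD, n = 5). Mzb1, also of B-lineage cells, had 481 ± 536 and 281 ± 382 CPM. In Ifnar1 +/- libraries 1, 2 and 6 and Ifnar1 -/- libraries 2 and 4, unlike Igha, it had only 0.804, 11.3, 0.162, 0.515 and 4.90 CPM. Sdc1, another gene of the list, had 0.362, 0.534, 1.65, 0.206 and 0.221 CPM in the same libraries. Mzb1 had 684 to 1122 CPM in Ifnar1 +/- libraries 3, 4 and 5 and Ifnar1 -/- libraries 3 and 5. Tnfrsf17 and Ighg3 stayed under 1 CPM in every library, and the summed level of the list was 161 to 1416 CPM in Ifnar1 +/- and 121 to 1432 CPM in Ifnar1 -/- libraries. The part of plasma cells in the Igkc values was not tested.

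Kappa and lambda constant genes had unequal shares from library to library. Of the counts of Igkc and of the lambda genes Iglc1, Iglc2 and Iglc3, Igkc held 40.7% (95% Wilson interval 39.5% to 41.8%) in Ifnar1 +/- library 3, 34.4% (33.8% to 35.0%) in library 4 and 68.1% (67.6% to 68.7%) in library 5. In Ifnar1 -/- library 3 it held 6.52% (6.20% to 6.86%) of 21496 counts, and in Ifnar1 -/- library 5 84.3% (83.7% to 84.9%) of 15992. Intervals cover counting error only. Divided by exon length the kappa shares were 36.8%, 30.9%, 64.6%, 5.61% and 82.5% in the same order. The low share of Ifnar1 -/- library 3 came with 469 CPM of Iglc1 and 249 CPM of Iglc3. Reads of the near-identical lambda genes can be split between copies, which leaves single lambda values uncertain.

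**Figure D2:**
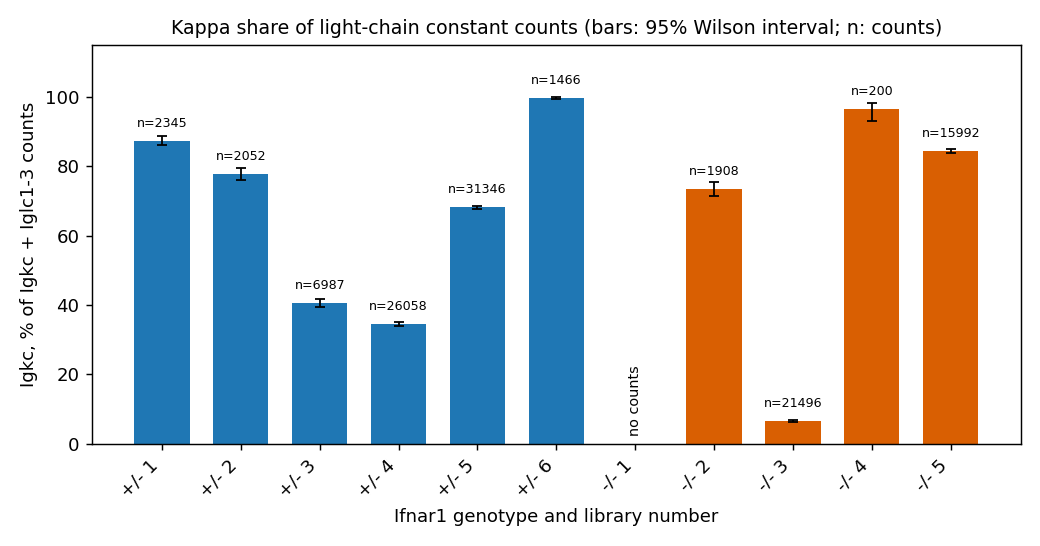
Share of Igkc in the counts of Igkc, Iglc1, Iglc2 and Iglc3 (y axis, percent) in each AML library (x axis), with 95% Wilson intervals and the number of counts. The lowest share was 6.52%, of Ifnar1 -/- library 3, and the highest 99.7%, of Ifnar1 +/- library 6, and Ifnar1 -/- library 1 had no counts of any of the 4 genes.

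Ms4a1, which encodes the B-cell surface protein CD20, was high in 3 libraries. Ms4a1 (ENSMUSG00000024673, chromosome 19, 11249675 to 11266241, minus strand) had 0.402, 0.1001, 4.67, 65.2, 124.8 and 0.0649 CPM across Ifnar1 +/- libraries 1 to 6. The Ifnar1 -/- libraries, in order, had 0, 0, 2.15, 0.110 and 151 CPM. Ifnar1 +/- library 3 and Ifnar1 -/- library 3 were low, and the other 3 libraries with over 10 CPM of Ighd were high.

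Cd22, the gene of an inhibitory co-receptor of the B-cell receptor (ENSMUSG00000030577, chromosome 7, 30865402 to 30880342, minus strand), split the libraries sharply. It had 0.322, 1.10, 136, 151, 163.5 and 0.292 CPM across Ifnar1 +/- libraries 1 to 6, and 0.339, 0.309, 78.7, 0.331 and 98.3 CPM across Ifnar1 -/- libraries 1 to 5. In the 5 libraries with high Cd22 its values lay between 78.7 and 163.5 CPM, whereas Ms4a1 lay between 2.15 and 151 CPM in them. Per kb, Ms4a1 was 2.80%, 35.3% and 62.2% of Cd22 in Ifnar1 +/- libraries 3, 4 and 5, and 2.22% and 125% in Ifnar1 -/- libraries 3 and 5. Of these 5, the 2 libraries with little Ms4a1 for their Cd22 had 9 counts of Dntt each.

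Ighd, the constant gene of the delta heavy chain, is spliced from the same primary transcript as Ighm. Ighd (ENSMUSG00000104213, chromosome 12, 113406604 to 113416324, minus strand) had 0.683, 0.367, 26.2, 17.8, 79.3 and 0.0324 CPM across Ifnar1 +/- libraries 1 to 6, and 0, 0.154, 25.5, 0.110 and 28.9 CPM across Ifnar1 -/- libraries 1 to 5. It was highest in Ifnar1 +/- library 5. Ighm, the constant gene of the mu heavy chain, was at 2069, 2494 and 3663 CPM for Ifnar1 +/- libraries 3, 4 and 5 and at 2934 and 2183 CPM for Ifnar1 -/- libraries 3 and 5. Per kb, Ighd was 1.26%, 0.709% and 2.15% of Ighm in these Ifnar1 +/- libraries and 0.863% and 1.32% in these Ifnar1 -/- libraries, so mu transcript exceeded delta transcript by 46.5-fold or more in all 5.

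Fcer2a, the gene of the low-affinity IgE receptor CD23 of mature B cells (ENSMUSG00000005540, chromosome 8, 3681737 to 3694175, minus strand), was at the limit of counting. It had 1, 0, 2, 3, 13 and 0 counts across Ifnar1 +/- libraries 1 to 6 and 0, 0, 2, 1 and 5 across Ifnar1 -/- libraries 1 to 5. The highest value was 0.313 CPM, in Ifnar1 +/- library 5, which also had the most Igkc, Ighd and Cd22. A count of 0 allows up to 0.0925 to 0.154 CPM in the 4 libraries that had none, so the values other than those of Ifnar1 +/- library 5 and Ifnar1 -/- library 5 lay at or under what 3 counts give.

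**Figure D3:**
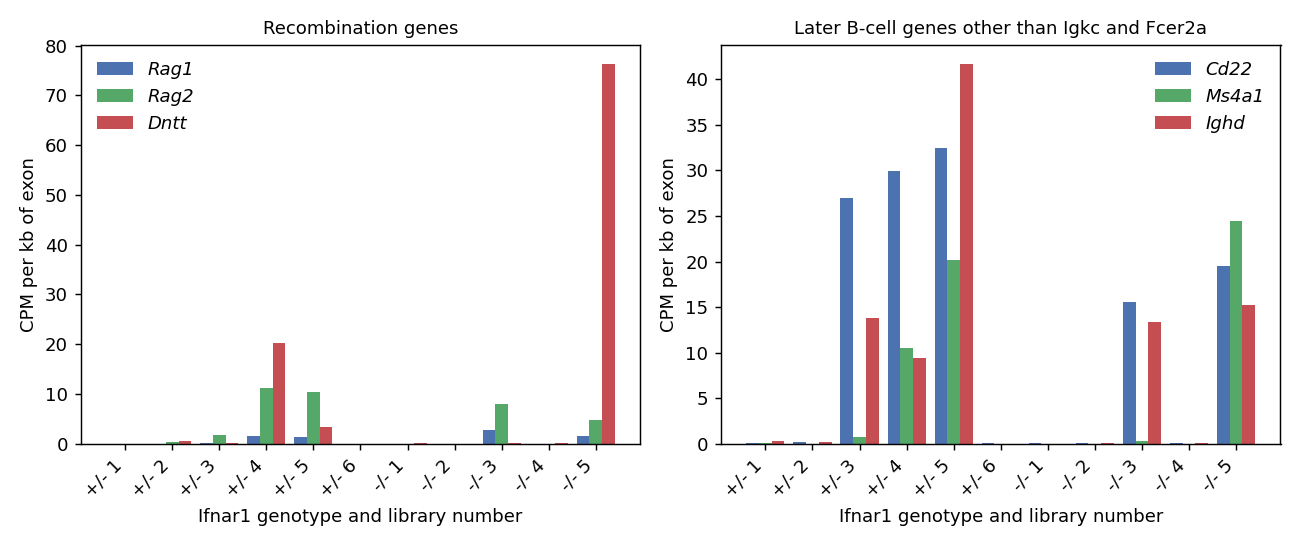
CPM per kb of exon (y axes, linear) of Rag1, Rag2 and Dntt (left) and of Cd22, Ms4a1 and Ighd (right) in the 11 AML libraries (x axes). Dntt is the tallest bar in Ifnar1 +/- library 4 and Ifnar1 -/- library 5 and is nearly absent from library 3 of both genotypes, as is Ms4a1, while Cd22 is present in all 5 libraries with tall bars.

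In each library the later genes exceeded the recombination genes, with 1 exception that rests on few counts. The summed level of Rag1, Rag2 and Dntt was 0.0235, 0.892, 2.20, 32.9, 15.05 and 0.0141 CPM per kb across Ifnar1 +/- libraries 1 to 6, and 0.148, 0, 11.03, 0.112 and 82.7 CPM per kb across Ifnar1 -/- libraries 1 to 5. The summed later genes had 155, 100.6, 233, 662, 1062 and 89.1 CPM per kb, and 0.0673, 136, 124, 13.5 and 867.8 CPM per kb, in the same order. Ifnar1 -/- library 1, the exception, had 13 counts of the recombination genes and 11 of the later genes.

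On a log2 scale, with 0.1 CPM per kb added to both sums, the early-to-later ratio was -10.30, -6.67, -6.67, -4.33, -6.13 and -9.61 across Ifnar1 +/- libraries 1 to 6. It was 0.57, -10.41, -3.47, -6.00 and -3.39 across Ifnar1 -/- libraries 1 to 5. The recombination genes had 2 and 1 counts in Ifnar1 +/- libraries 1 and 6, and 13, 0 and 7 in Ifnar1 -/- libraries 1, 2 and 4. Ratios of these libraries, and the means that hold them, therefore depend on the 0.1 added. Means were -7.28 ± 2.25 (SD, n = 6) and -4.54 ± 4.04 (SD, n = 5), a difference of 2.74 that was smaller than the SD of the Ifnar1 -/- libraries and was not tested. It was 1.47 without Ifnar1 -/- library 1 and 4.21 without Ifnar1 -/- library 2.

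Igkc set most of the later sum. It made up 76.2% to 99.9% of that sum in the 10 libraries where it was counted. Without Igkc the log2 ratio was -4.18, -0.60 and -2.64 in Ifnar1 +/- libraries 3, 4 and 5, and -1.41 and 0.48 in Ifnar1 -/- libraries 3 and 5. The recombination genes therefore exceeded the 4 other later genes in Ifnar1 -/- library 5, where Dntt was highest, and were lowest against them in Ifnar1 +/- library 3. Among the libraries with few recombination counts, Ifnar1 +/- library 2 (80 counts) and Ifnar1 -/- library 1 also had values above 0, at 0.91 and 0.57. The difference between the genotype means was then 1.20.

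**Figure D4:**
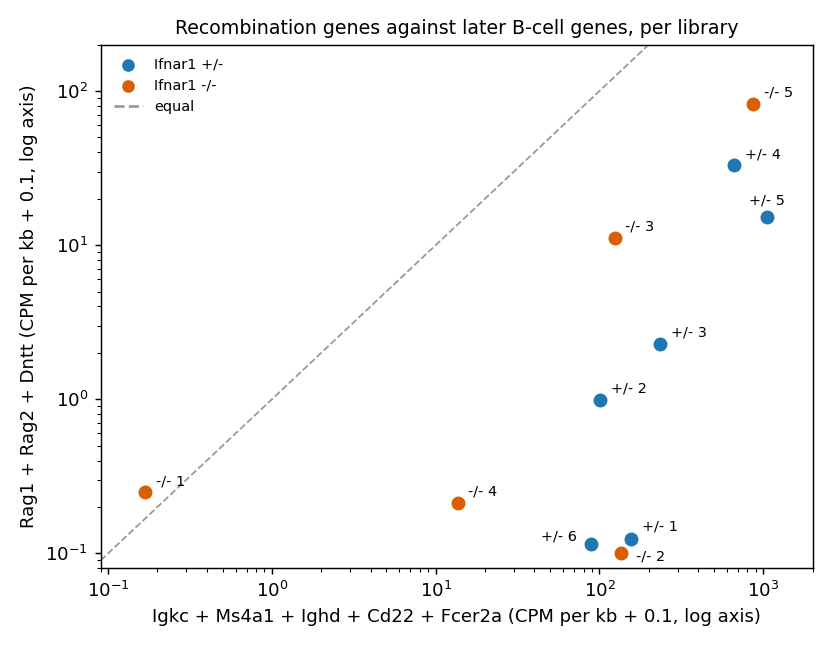
Summed Rag1, Rag2 and Dntt (y axis) against summed Igkc, Ms4a1, Ighd, Cd22 and Fcer2a (x axis) in each AML library, both in CPM per kb with 0.1 added and on log axes, with the dashed line marking equality. Of the 11 libraries, 10 lie below the line, and Ifnar1 -/- library 1, with few counts of either set, lies above it.

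None of the 8 genes passed a test for a difference by Ifnar1 genotype. The filter on low counts let 6 of them through, and edgeR's quasi-likelihood test called 0 of these at an adjusted p of 0.05, as it did 0% of the 14521 genes tested. At an unadjusted p under 0.05 there were 0 of 6, against 1.99% of all genes. DESeq2 and limma voom called 0 of the 6 as well, and called 0.0207% and 0% of all genes. For 0 of the 8 did the CPM ranges of the genotypes separate, against 0.124% of all genes tested.

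The mean of Rag1 was 3.40 ± 4.65 CPM over the Ifnar1 +/- libraries (SD, n = 6) and 5.82 ± 8.54 CPM over the Ifnar1 -/- libraries (SD, n = 5). Its log2 fold change, Ifnar1 -/- over Ifnar1 +/-, was 0.78 (SE 1.98, edgeR adjusted p = 0.9998). Without Ifnar1 -/- library 3 this was -0.38. Rag2 had 13.5 ± 18.2 and 8.84 ± 12.6 CPM, a log2 fold change of -0.61 (SE 1.95, same adjusted p), which was 0.042 without Ifnar1 +/- library 4. Both standard errors exceed the fold changes by over 2 times, so changes of several-fold in either direction were not detectable with these libraries.

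The later genes that could be tested had log2 fold changes of -0.74 (SE 1.40) for Igkc, -0.08 (SE 2.24) for Ms4a1, -0.92 (SE 1.90) for Ighd and -1.08 (SE 1.91) for Cd22, all with an edgeR adjusted p of 0.9998. Cd22 had 75.3 ± 82.3 CPM over the Ifnar1 +/- and 35.6 ± 48.8 CPM over the Ifnar1 -/- libraries. The value of Igkc was -2.54 without Ifnar1 -/- library 5 and -0.12 without Ifnar1 +/- library 5, and that of Cd22 was -1.92 and -0.70. Igkc was also -0.42 and -0.44 without Ifnar1 -/- libraries 1 and 4. The value of Ms4a1 was -5.83 without Ifnar1 -/- library 5 and 1.12 without Ifnar1 +/- library 5. It was 0.24 to 0.27 without Ifnar1 +/- library 4 or without any one of Ifnar1 -/- libraries 1 to 4. Ighd had 0.28 without Ifnar1 +/- library 5. The median over the 6 genes was -0.68, and it was -0.01 over all genes, but the 6 share their high libraries and are not independent.

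Dntt and Fcer2a did not pass the filter, since 4 libraries and 1 library had 10 counts or more. With no filter the log2 fold change of Dntt was 1.93 (edgeR unadjusted p = 0.404, adjusted p = 0.893), with means of 9.29 ± 18.4 and 35.2 ± 78.2 CPM. The Ifnar1 -/- mean rests on library 5. Fcer2a had -0.70 (unadjusted p = 0.576).

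**Figure D5:**
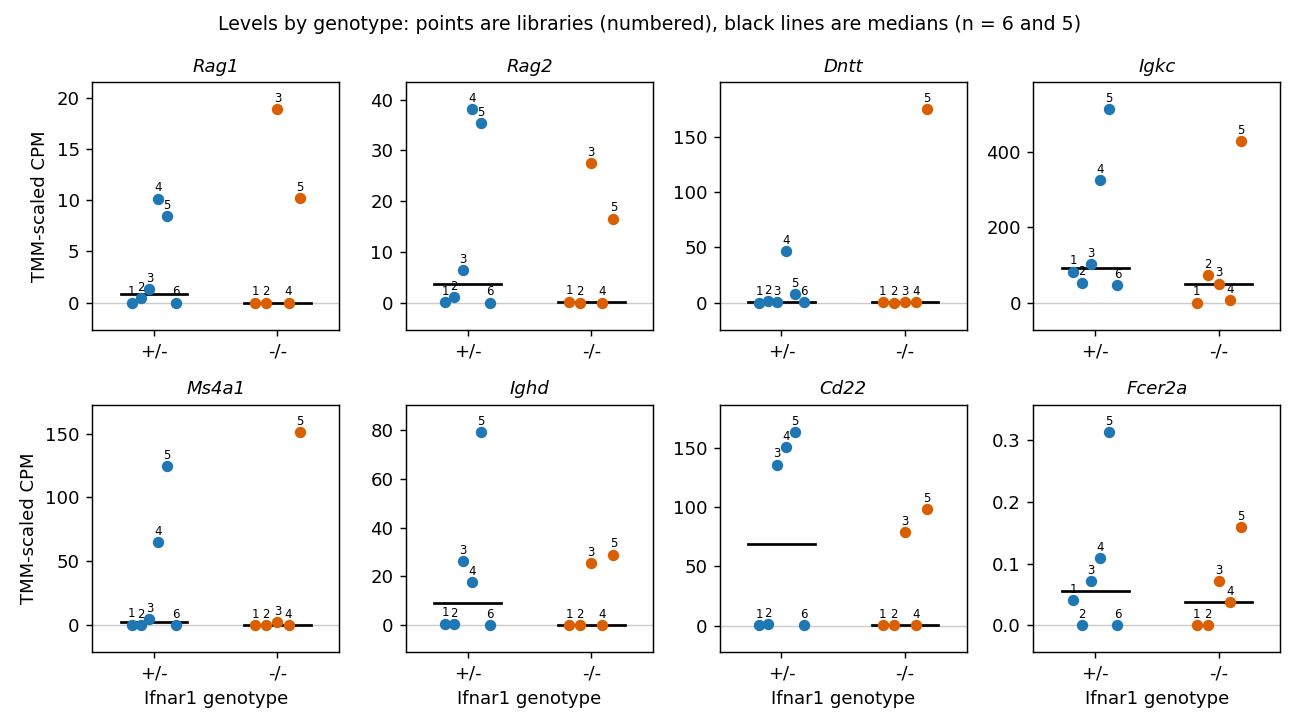
TMM-scaled CPM (y axes, linear, each with its own range) of the 8 genes by Ifnar1 genotype (x axes). Points are libraries with their numbers and black lines are medians over 6 Ifnar1 +/- and 5 Ifnar1 -/- libraries. Points of the genotypes overlap for every gene, and for Rag2, Ighd and Cd22 the high points are libraries 3, 4 and 5 of Ifnar1 +/- and 3 and 5 of Ifnar1 -/-.

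Partners of the recombinase were counted in every library, with or without Rag transcripts. Of 18 genes for RAG cofactors, end joining and the response to DNA breaks, all could be tested and 0 were called in either direction, with 13 fitted lower and 5 higher in Ifnar1 -/- AML and a median log2 fold change of -0.08. Hmgb1, a DNA-bending cofactor of the RAG complex, had 1639 ± 1055 CPM over the Ifnar1 +/- (SD, n = 6) and 1068 ± 646 CPM over the Ifnar1 -/- libraries (SD, n = 5). Its relative Hmgb2 had 650.3 ± 406 and 603 ± 368 CPM, and the end-joining factor gene Paxx had 28.6 ± 9.88 and 35.1 ± 11.3 CPM. H2afx, the gene of the histone variant marked at DNA breaks, had 202 ± 139 and 194 ± 160 CPM.

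The summed level of these 18 genes was 3545 to 4838 CPM in Ifnar1 +/- libraries 3, 4 and 5 and 3580 and 3709 CPM in Ifnar1 -/- libraries 3 and 5. It was 991 to 1736 CPM in the other 6 libraries. Hmgb1 and Hmgb2 made up most of the sum, and Hmgb1 alone had 1438 to 3013 CPM in the former and 440 to 945 CPM in the latter libraries. Not all of the 18 followed it. Dclre1c had 6.97 to 12.7 CPM over all libraries, and Paxx had 16.2 to 32.5 CPM in the former and 27.2 to 44.7 CPM in the latter. Lig4, the end-joining ligase gene, which was chosen after its values were seen, was highest at 68.7 CPM in Ifnar1 +/- library 3, the library with low Rag1 and Rag2. It had 16.5 and 27.7 CPM in Ifnar1 +/- libraries 4 and 5, 27.4 and 26.9 CPM in Ifnar1 -/- libraries 3 and 5, and at most 3.57 CPM elsewhere.

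Regulators of the Rag genes also gave no call. All 24 could be tested, with 16 fitted lower and 8 higher and a median log2 fold change of -0.31. Ebf1 had 341 ± 371 CPM over the Ifnar1 +/- (SD, n = 6) and 237 ± 327 CPM over the Ifnar1 -/- libraries (SD, n = 5), and was at 529 to 744 CPM in Ifnar1 +/- libraries 3, 4 and 5 and Ifnar1 -/- libraries 3 and 5. Id2, whose product inhibits E proteins, had 1649, 375, 196, 110.0, 121 and 687 CPM across Ifnar1 +/- libraries 1 to 6, and 297, 427, 92.9, 596.5 and 79.04 CPM across Ifnar1 -/- libraries 1 to 5. It was thus lowest in the 5 libraries where Ebf1 was high. Foxp1 had 295 ± 119 and 251 ± 93.3 CPM. Spi1, the gene of the myeloid and B-cell factor PU.1, had 506 CPM in Ifnar1 -/- library 2 and 26.6 to 89.4 CPM in the others, and Ikzf3 had 69.4 and 46.3 CPM in Ifnar1 -/- libraries 1 and 2 and at most 13.8 CPM elsewhere.

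Markers of the pre-B stage were abundant in 5 of the 6 libraries with at least 10 counts of both Rag genes, Ifnar1 +/- library 2 being the exception at 719 CPM in sum. The 18 genes summed to 11002 to 14743 CPM in Ifnar1 +/- libraries 3, 4 and 5 and Ifnar1 -/- libraries 3 and 5, and to 384 to 1627 CPM in the other 6. All 18 could be tested and 0 were called (15 fitted lower, 3 higher, median -0.40). Of all genes tested 51.7% were fitted lower, and genes of this list share their high libraries and are not independent. Cd79a, a signalling chain of the B-cell receptor, had 1439 ± 1569 and 937 ± 1301 CPM, and Igll1 had 1033 ± 1199 and 593 ± 865 CPM. Syk and Erg, with the smallest p of the list, had 85.95 ± 43.03 against 107 ± 61.4 CPM and 31.6 ± 12.6 against 25.2 ± 12.8 CPM.

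Of 28 genes of mature B cells, 26 could be tested and 0 were called (15 fitted lower, 11 higher, median -0.09). Of these, 1, Ltb, had an unadjusted edgeR p under 0.05, against 1.99% of all genes tested. Ltb, a lymphotoxin gene, had 4.81 ± 3.52 CPM over the Ifnar1 +/- (SD, n = 6) and 18.2 ± 19.2 CPM over the Ifnar1 -/- libraries (SD, n = 5), with 50.2 and 21.7 CPM in Ifnar1 -/- libraries 2 and 1, where the B-cell members were at or near 0 apart from Igkc in library 2. Cd37 and Cd74, which are abundant members, are not restricted to B cells and had 415 ± 195 and 210 ± 123 CPM in Ifnar1 +/- against 383 ± 123.5 and 232 ± 328 CPM in Ifnar1 -/- AML. Cd83, of activated B and dendritic cells, had 0.810 ± 0.523 and 0.368 ± 0.334 CPM. Cr2, the complement receptor gene of mature B cells, had at most 2.04 CPM. Other members, named after their values were seen, were higher in Ifnar1 +/- libraries 3, 4 and 5 and Ifnar1 -/- libraries 3 and 5. Fcrl1 had 30.0 to 46.6 CPM in them and at most 0.767 CPM elsewhere, and Cxcr5 had 3.83 to 15.1 and at most 0.901 CPM. The list summed to 2595 to 2893 CPM in these libraries and to 615 to 1066 CPM elsewhere.

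Rag and Dntt transcripts are also known from early T cells and from precursors of plasmacytoid dendritic cells, whose markers were therefore read beside them. Of 20 early T-cell genes, Cd3e, Cd8a, Cd8b1, Themis and Trbc1 stayed under 1 CPM in every library. The pre-T-cell receptor gene Ptcra reached 1.09 CPM. Other genes of the list, named after their values were seen, were higher in some libraries. Cd3d and Cd3g had 18.3 and 5.97 CPM in Ifnar1 -/- library 2, and Bcl11b had 14.4 CPM in Ifnar1 -/- library 1. Cd2 had 116 and 83.1 CPM in Ifnar1 +/- libraries 4 and 5. The list summed to 187 to 917 CPM in Ifnar1 +/- and 36.3 to 539 CPM in Ifnar1 -/- libraries, with Lat, Lck and Trac the most abundant. Lat had 157 to 396 CPM in all libraries but Ifnar1 -/- library 2, at 6.845 CPM. Lck had 451, 170 and 116 CPM in Ifnar1 +/- libraries 3, 4 and 5. It had 259 and 95.2 CPM in Ifnar1 -/- libraries 3 and 5, and at most 69.3 CPM elsewhere. Trac, the T-cell receptor alpha constant gene, had 289, 164 and 184 CPM in Ifnar1 +/- library 2 and Ifnar1 -/- libraries 1 and 4, 48.8 CPM in Ifnar1 -/- library 5, which had the most Dntt, and 0.436, 0.626 and 0.822 CPM in Ifnar1 +/- libraries 4 and 5 and Ifnar1 -/- library 3. Of 10 genes tested, 0 were called, and Gata3 alone had an unadjusted edgeR p under 0.05, against 1.99% of all genes tested. Gata3 had 5.65 ± 7.87 and 0.551 ± 0.813 CPM, and Cd247 had 1.01 ± 1.04 and 4.39 ± 5.83 CPM. The Ifnar1 +/- mean of Gata3 rests on libraries 1 and 3, at 14.1 and 17.3 CPM. It was 0.300 to 1.30 CPM in the other Ifnar1 +/- libraries and 1.99 CPM in Ifnar1 -/- library 4. The part of T cells in the Rag and Dntt values was not tested.

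Siglech and Klk1, of the 12 plasmacytoid dendritic-cell genes, had 0 counts in every library. The list summed to 187 to 514 CPM in Ifnar1 +/- and 208 to 800.0 CPM in Ifnar1 -/- libraries, and 0 of 8 tested genes were called. Its abundant members Tcf4 and Irf8 are expressed in other blood cells too, with 208 ± 66.04 and 117 ± 128 CPM (SD, n = 6) in Ifnar1 +/- and 220 ± 79.05 and 73.4 ± 101 CPM (SD, n = 5) in Ifnar1 -/- AML. Ly6d, a gene of early lymphoid cells, had 450.3 CPM in Ifnar1 -/- library 3, which had the most Rag1, and at most 16.7 CPM in the other 10 libraries. Cox6a2 had 17.8 CPM in Ifnar1 +/- library 4 and at most 3.20 CPM elsewhere.

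Genes with the most similar pattern were sought by Pearson's correlation of log2(CPM + 1) over the 11 libraries, as a description, since all points share the split between libraries with and without B-lineage transcripts. For Rag1 they were Gramd3 (r = 0.978), Sdc1 (0.973), Ttll11 (0.973), Kcnk10 (0.972) and Tns3 (0.971). For Rag2 they were Kcnk10 (0.989), Nkd2 (0.989), Rnase9 (0.987), Aarsd1 (0.986) and Mpzl3 (0.985). Sdc1, which encodes syndecan-1, a surface proteoglycan of pre-B and plasma cells, had 1.29 CPM in Ifnar1 +/- library 3 and 28.3 to 53.1 CPM in the other 4 libraries with Rag1 above 1 CPM. Sdc1 was picked by its correlation with Rag1 in these same libraries, so its low value there is part of the selection.

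The values closest to Dntt were lower, at 0.925 for Cabp4, 0.925 for Mtch1, 0.924 for Pik3r4, 0.922 for Pcdhgb6 and 0.907 for Rnase10. Rnase10, picked by its correlation with Dntt, had 259.9 CPM in Ifnar1 +/- library 4 and 404 CPM in Ifnar1 -/- library 5, the 2 libraries with most Dntt. It had 22.2 CPM in Ifnar1 -/- library 3 and at most 5.95 CPM in the others. For Igkc the closest values were 0.900 for Chpt1, 0.884 for Ccdc124, 0.881 for Map3k20, 0.872 for Tor3a and 0.866 for Tpcn1. Of these, Ccdc124 was present throughout, at 75.1 to 182 CPM.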

How the data were processed

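RNA of 11 AML samples was sequenced from libraries made with a Clontech SMART-type kit, per the labels' protocols. Tools named are bcl2fastq and DRAGEN, without versions, per the submitters' processing notes. The authors deposited estimated counts per gene, not scaled between samples. The genome build is not given in the sources used here. Of 55774 rows, 287 identical copies were dropped, and 55141 of 55487 identifiers had a symbol. Exon lengths came from GENCODE M21 and promoters from RefSeq (GRCm38.p6).

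After rounding, edgeR 4.0.16 (R 4.3.3) tested the counts (filterByExpr, TMM, robust quasi-likelihood F-test, two-sided, Benjamini-Hochberg adjustment over all 14521 genes, threshold 0.05). The test was also run on simulated data. DESeq2 1.42.0 and limma 3.58.1 (voom), other scalings and filters, leaving out each library and a replicate block were alternatives. The voom fit weighted each library by its estimated quality and used robust moderation. From each list, up to 2 genes with the smallest p and 3 with the highest level are named, and the 5 genes most like Rag1, Rag2, Dntt and Igkc. The genes and lists were chosen with earlier results of these data known. Some genes that this rule names are not reported here.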

Additional observations from a re-analysis of the deposited data

Results flagged for a closer look

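Within a genotype, the gap between an extreme library and its nearest neighbour was compared with the range of the group, for 8 genes in 2 genotypes (16 groups of values). Chance gives about 1 such gap in 20 groups where values follow a normal distribution. There were 6 here, but these CPM values, with many near 0, do not follow one, and the genes share their high libraries, so the number cannot be read against that rate. Ifnar1 -/- library 5 was far above the other Ifnar1 -/- libraries for Dntt, at 175.0 CPM against 0.322 CPM in the next, for Ms4a1, at 151 against 2.15 CPM, and for Igkc, at 430.1 against 72.2 CPM. Ifnar1 +/- library 4 was far above the other Ifnar1 +/- libraries for Dntt, at 46.4 against 7.83 CPM. Ifnar1 +/- library 5 was far above them for Ighd, at 79.3 against 26.2 CPM, and for Fcer2a, at 0.313 against 0.109 CPM, the latter being 13 counts against 3.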

How the results depend on the processing

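The number of genes called between genotypes was 0 in edgeR under every alternative scaling and filter, under the replicate block and without any 1 library (lowest 0, highest 0), and 0 in limma voom. DESeq2 called 3. The sign of the fold change turned for 4 of the 6 genes that passed the filter, none of which passed a test. For Rag1 it was -1.38 with the replicate block, where Ifnar1 +/- library 6 has no partner and adds nothing, and -3.41 in limma voom. The others were lower too, at -1.64 (block) and -3.75 (voom) for Rag2, -2.33 and -5.84 for Igkc, -2.76 and -4.72 for Ms4a1, -2.53 and -4.72 for Ighd, and -1.66 and -3.88 for Cd22. Leaving out single libraries gave -0.38 to 1.504 for Rag1, -1.66 to 0.042 for Rag2, -5.83 to 1.12 for Ms4a1, -1.69 to 0.28 for Ighd, -2.54 to -0.12 for Igkc and -1.92 to -0.70 for Cd22. Ms4a1 had 0.011 without Ifnar1 +/- library 6 and Ifnar1 -/- library 2. The cause of these turns was not tested. Libraries of the same number correlated from -0.59 to 0.63 in their deviations from the genotype means, and 1 of 5 matched its own number best, so the numbers were not taken as pairs. The log2 early-to-later difference was 1.01 to 2.73 under other pseudocounts, without length, without Igkc or as a mean of logs, and 1.47 to 4.21 without 1 library. Fcer2a, and Dntt in 7 of 11 libraries, had under 10 counts, with the exception of Ifnar1 +/- library 5 for Fcer2a, which limits what their values can show.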

Other observations

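Some B-lineage transcripts differed within the libraries that had Rag transcripts, in genes chosen after their values were seen. Blk, the gene of a B-cell Src-family kinase, had 15.2 CPM in Ifnar1 -/- library 3, the library with most Rag1 and the lowest kappa share, and at most 2.84 CPM elsewhere. Id3, an inhibitor of E proteins, had 258 to 535 CPM in Ifnar1 +/- libraries 3, 4 and 5 and Ifnar1 -/- libraries 3 and 5 and at most 11.8 CPM in the other 6, the reverse of Id2.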
